A study of Mus musculus with 24 samples.

Results

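The array carried 4450 spot types (60-base probes) whose target had no gene symbol and was named only by a stretch of the mouse genome, as a chromosome, a start, an end and a strand (F for forward, R for reverse). These position-named intervals were placed between annotated genes as candidate long intergenic RNAs. The 2248 probes described here were selected on their own signal: each was well above the array's local background on at least 5 of 24 arrays. They read 2113 distinct interval names. All other probes on the array, 52155 in number, carried no such name. Because signal chose them, detection is described below and not tested.

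Long intergenic RNAs are transcribed outside protein-coding genes, are often spliced and polyadenylated, and are frequently expressed at low levels and in few tissues. Some act on neighbouring genes, some act as scaffolds elsewhere in the nucleus, and for most no function is known. In the liver, fasting shifts transcription from lipid synthesis to fatty acid oxidation, ketogenesis and gluconeogenesis. PPARα, the nuclear receptor encoded by Ppara, binds fatty acids and drives much of the oxidative part of that response.

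The sequences below are those of the probes on which the results turn, read 5′ to 3′ on the named strand in build mm9. They are shown because 1 probe of 60 bases stands for an interval that can span many kilobases. Capitals mark AATAAA or ATTAAA, the hexamers that often precede a polyadenylation site. AATAAA was found on the probe's own strand in 4.0% of the kept position-named probes and in 11.2% of the kept probes without a position name, and ATTAAA in 2.3% and 4.0%.
chr6:31037606-31037912_R: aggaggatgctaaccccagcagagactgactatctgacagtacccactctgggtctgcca
chr1:64232564-64349617_R: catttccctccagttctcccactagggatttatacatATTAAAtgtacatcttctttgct
chr3:121615836-121616109_F: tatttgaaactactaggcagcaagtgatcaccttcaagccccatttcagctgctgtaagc
chr4:116790373-116797823_R: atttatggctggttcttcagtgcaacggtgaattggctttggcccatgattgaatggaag
chr5:106982442-107045717_R: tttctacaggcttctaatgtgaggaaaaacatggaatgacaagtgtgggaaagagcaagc
chr1:59449275-59474025_F: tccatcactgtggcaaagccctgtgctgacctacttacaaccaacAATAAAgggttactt
chr1:161992257-161992963_F: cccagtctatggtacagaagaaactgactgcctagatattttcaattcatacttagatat

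A further 4 probes are shown because their letters bear on which RNA they read. In the pair on chromosome 5, capitals mark the 48 bases that both probes share. In the chromosome 9 probe, capitals mark the 23 bases it shares with the array's probe for the transcript ENSMUST00000095071, annotated as a predicted gene and lying near the glutathione transferase alpha genes. The last is printed without capitals and lies beside Neat1, a nuclear long noncoding RNA.
chr5:22887983-22939658_R: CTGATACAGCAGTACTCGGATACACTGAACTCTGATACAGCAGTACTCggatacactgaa
chr5:22890322-22939119_R: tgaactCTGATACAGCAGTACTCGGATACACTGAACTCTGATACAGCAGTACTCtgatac
chr9:78107225-78118850_F: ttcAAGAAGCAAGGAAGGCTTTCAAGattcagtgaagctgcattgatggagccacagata
chr19:5771425-5848475_F: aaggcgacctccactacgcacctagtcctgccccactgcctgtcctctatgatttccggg

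Liver RNA came from male C57Bl/6J mice of 8 weeks on a chow diet, and tissue was taken at zeitgeber time 16 (ZT16), during the dark phase. WT mice had Ppara in the liver and LKO mice carried a liver-specific deletion of it; the labels give neither the Cre driver nor the deleted part. Mice of either genotype were fed or fasted for 24 h, which gave WT groups of 5 fed and 5 fasted animals and LKO groups of 6 fed and 6 fasted animals, on 24 arrays. The labels number 22 animals, with 1 fed WT and 1 fasted WT animal each on 2 arrays, whereas the series text states 24 mice with 6 in each group; the labels were followed and the 2 arrays of an animal were averaged.

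All levels below are log2 signals relative to the array's 75th percentile, which ranged from 309.7 to 412.6 intensity units, and a change is a difference of such levels with its standard error (SE) from limma. A probe was called at an adjusted p below 0.05, after Benjamini-Hochberg adjustment over all 33314 probes fitted. The signal for Ppara was lower in LKO by 0.67 ± 0.14 (SE) in fed mice (limma adjusted p = 0.00774) and by 0.88 ± 0.14 in fasted mice (adjusted p = 5.65e-05). Hepatocyte markers lay between 7.88 and 10.77 in mean level and none of the 8 differed between genotypes. Of 6 endothelial markers, all were lower in fasted LKO than in fasted WT mice (median -0.44) and 4 were higher with fasting in WT; the mean over the list ran from 1.64 to 2.0 in fed WT, 2.12 to 2.49 in fasted WT, 1.74 to 2.04 in fed LKO and 1.65 to 1.95 in fasted LKO mice. Its part in the results below was not tested. In bulk tissue, fewer cells of a type and less RNA per cell cannot be told apart.

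Position-named probes were dimmer and less often detected than the rest of the array. Of the 4450, 50.5% were kept, against 59.6% of the other probes, and 1181 were well above background on no array. Of the 2248 kept, 1419 were detected on all 24 arrays and the rest on 5 to 23. None was saturated, and none was detected in 1 group alone. Well above background only in WT were 2 kept probes, only in LKO 7, only in fed mice 5 and only in fasted mice 14. These passed the limit through the animals where they were high and so had to differ, and for the 4 of them described below the changes are given without a test. The 51 probes detected on exactly 5 arrays, just inside the limit, had mean levels from -5.57 to -4.34 (median -4.71). The 76 on exactly 4 arrays, just outside it, ran from -5.86 to -4.27 (median -4.99). The median level of the kept probes was -2.5, against -0.57 for kept probes with no position name; signals of different probes depend on their sequence and are no measure of relative amount. The median SD between animals of a group was 0.2 for probes detected on all arrays and 0.46 for those detected on some, which sets how small a change could be called.

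The kept probes were spread over 20 chromosomes, with 165 on chromosome 1, 162 on chromosome 2 and 148 on chromosome 4. Forward and reverse names were about equally common, at 1104 and 1144. Interval lengths ran from 67 to 533972 bases with a median of 10932. Intervals overlapped: merging them gave 1373 loci, of which 533 held 2 or more kept probes and 1 held 11, so probes of a locus do not count as independent. The median GC content was 45.0% (quartiles 41.7% and 53.3%), against 43.3% (36.7% and 45.0%) for the other kept probes. The intervals were not always empty of genes. In the RefSeq annotation of GRCm38.p6, 30 kept probes lay whole within the 300 bases around a gene start, 12 of them on the gene's strand, among them a probe for the start of Wtap, which encodes a subunit of the RNA adenosine methylation complex. Of the kept probes, 12 shared 25 bases on the same strand with a probe that carried no position name, and 25 did so on the opposite strand. These may include some of the 30.

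Fasting moved more position-named probes than genotype did, and fewer of them than of all probes. In WT mice 372 of 2248 (16.5%) were called higher with fasting and 181 (8.05%) lower, where all probes fitted gave 20.5% and 18.2%. In LKO mice 351 (15.6%) were higher and 272 (12.1%) lower, against 21.0% and 22.7%. LKO differed from WT in fed mice for 15 higher and 18 lower, against 1.40% and 1.94% of all probes. Fasted mice gave a wider genotype difference, with 191 higher and 248 lower in LKO, against 15.0% and 18.8%. The fasting change itself differed between genotypes, as change in LKO minus change in WT, for 62 higher and 115 lower, against 5.91% and 8.74%. Every one of these 10 shares was below that of all probes. Median changes over the kept probes were 0.06, -0.03, 0.02, -0.04 and -0.07 in the order of these comparisons, against 0.01, -0.02, 0.01, -0.02 and -0.03 over all probes.

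The balance of higher and lower calls with fasting moved with the background correction. With normexp on the raw spot signals the split was 266 higher and 241 lower in WT, and 261 and 322 in LKO. Of all animals left out in turn, fed LKO replicate 3 moved the counts most upwards: without it the 5 counts of called probes, in the same order, were 589, 642, 42, 475 and 230, against 553, 623, 33, 439 and 177 with it.

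**Figure D1:**
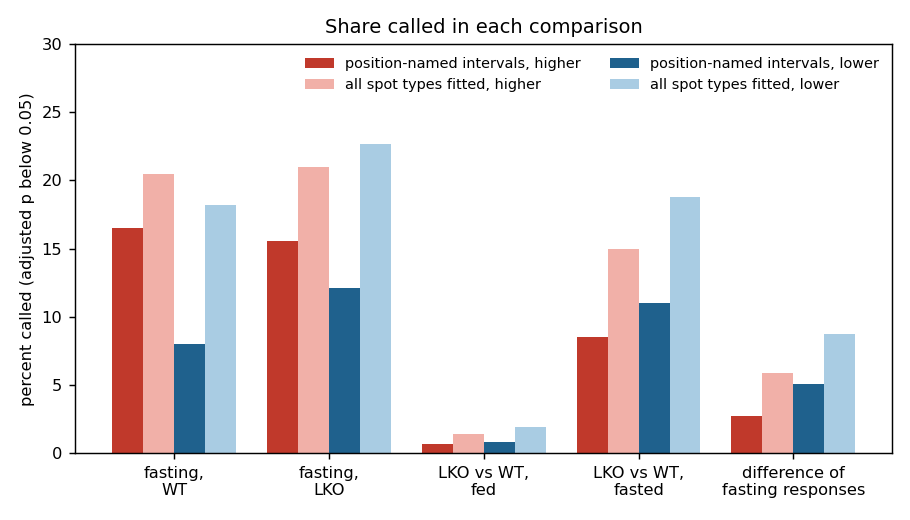
Percent of probes called at an adjusted p below 0.05 in each comparison, higher (red) and lower (blue), for the 2248 kept position-named probes (dark bars) and for all 33314 probes fitted (pale bars). Dark bars are lower than the pale bar of the same colour in all 5 comparisons; fasting in WT gave 16.5% higher against 20.5%.

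Changes of 2-fold or more were fewer. Called and at least 2-fold were 71 probes that rose (3.16% of 2248) and 28 that fell (1.25%) with fasting in WT, where all probes gave 3.41% and 2.73%. In LKO they were 69 (3.07%) and 28 (1.25%), against 2.99% and 3.0%. Genotype gave 7 higher (0.311%) and 4 lower (0.178%) at that size in fed mice, against 0.348% and 0.45%. In fasted mice it gave 33 (1.47%) and 29 (1.29%), against 1.91% and 2.37%. Of the 372 probes that rose in WT, 207 (55.6%) also rose in LKO, which was 59.0% of the 351 that rose there. Over all probes the shared rises were 57.4% of the WT and 56.2% of the LKO list. The 110 that fell in both were 60.8% of the WT list and 40.4% of the LKO list, against 65.1% and 52.1% over all probes. A rise in WT with a fall in LKO was called for 9 probes, and the reverse for 7. The WT and LKO fasting comparisons share no animals. Sizes of change depended on the background correction. Of 143 changes called in the probes examined singly, 83 were smaller by over 1.5 times with normexp, and 38 of the 117 that the authors' deposited table of processed values also gave were smaller there by as much.

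**Figure D2:**
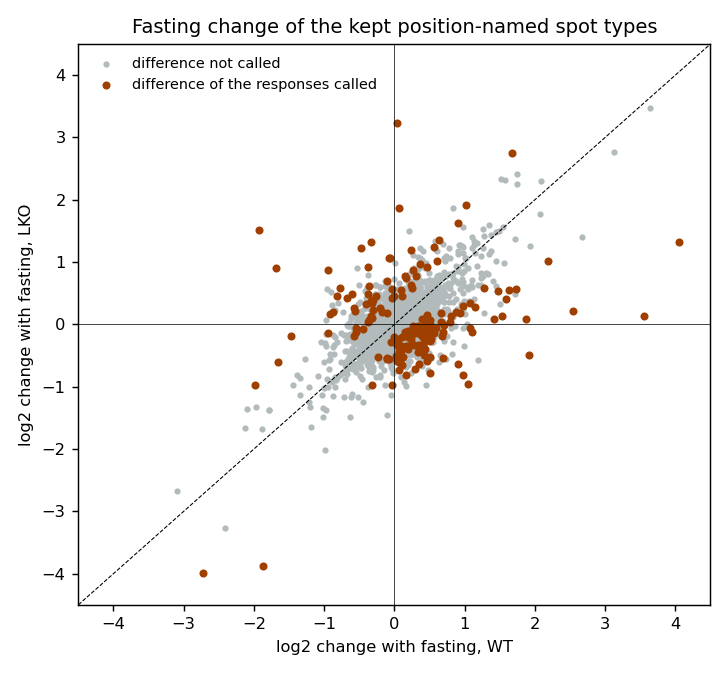
Log2 change with fasting in WT (x axis) against that in LKO (y axis) for each of the 2248 kept position-named probes; brown points are the 177 whose change differed between genotypes, and the dashed line marks equal change. Most points lie near the line, and brown points away from it include the chromosome 9 probe at -1.93 in WT and 1.52 in LKO. Changes against a group below background are fitted values here and depend on the background correction.

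Among the members higher with fasting in both genotypes was a 94149-base forward interval on chromosome 14, chr14:103746051-103840199_F, with no kept gene probe within 100 kb. Its levels in fed WT mice were -4.54, -6.66, -5.84, -5.33 and -5.94, and in fasted WT mice -2.72, -2.41, -2.39, -2.83 and -2.37. Fed LKO mice ran from -6.18 to -5.2 (median -5.73) and fasted LKO mice from -3.93 to -2.39 (median -2.63). Fed and fasted animals did not overlap in either genotype. No array of either fed group was well above background, so the rise is a lower bound: at least 3.28-fold in WT and at least 2.63-fold in LKO. The probe passed the detection limit through fasted mice alone. Such a bound replaces the dim group's values by a detection limit wherever the dim probe itself did not exceed that limit. The limit is the lowest signal that any probe well above background had on that array. Where an adjusted p is given for such a probe, it belongs to the fitted change and does not test the bound.

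Lower with fasting in both genotypes was a forward interval on chromosome 1, chr1:59449275-59474025_F, whose probe holds an AATAAA near its 3′ end. Fed WT mice gave -4.32, -2.53, -4.1, -4.27 and -3.44, and fasted WT mice -6.73, -5.38, -6.83, -6.5 and -6.84. In LKO the fed mice lay between -2.97 and -2.36 (median -2.63) and the fasted mice between -7.13 and -6.21 (median -6.62). The groups did not overlap in either genotype, and no fasted array was well above background. The fasted level was at least 1.63-fold lower in WT and at least 3.7-fold lower in LKO, for a probe that passed the detection limit through fed mice alone. Its reverse-strand partner, with the same coordinates and a probe on the other strand, was well above background in 4 of 6 fed LKO mice, 1 of 6 fasted LKO mice and no WT mouse. That reverse probe, which passed with exactly 5 arrays and through LKO alone, was at least 1.29-fold higher in fed LKO than in fed WT mice.

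Several other members fell with fasting in both genotypes. A forward interval on chromosome 10, chr10:92547995-92556102_F, fell by 2.41 ± 0.62 in WT and by 3.27 ± 0.56 in LKO, with no overlap between fed and fasted mice. On chromosome 2, chr2:119697845-119719245_F fell by 1.87 ± 0.43 in WT and by 3.88 ± 0.39 in LKO, and the difference of these changes was called (-2.02 ± 0.58, limma adjusted p = 0.0232). Its fed mice varied widely, from -3.36 to -1.04 in WT and from -1.03 to 0.89 in LKO. A pair of short forward intervals elsewhere on chromosome 2 had no kept gene probe within 100 kb. The brighter, chr2:67836003-67836461_F, fell by 2.1 ± 0.52 in WT without overlap and by 1.36 ± 0.48 in LKO with overlap; the LKO call was lost without fed LKO replicate 3 or 6. The other, chr2:67834535-67834914_F, changed by -1.2 in WT, which was not called, and by -1.32 in LKO, a call lost under 8 of 30 settings.

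With the processed signals used here, the steepest rise in WT came from a short reverse interval of 307 bases on chromosome 6, chr6:31037606-31037912_R. Fed WT mice gave -3.44, -4.33, -3.84, -4.51 and -4.84 and fasted WT mice -0.2, -0.16, -0.1, -0.37 and 0.11. Fed LKO mice ran from -5.59 to -4.13 (median -4.62) and fasted LKO mice from -3.92 to -3.12 (median -3.25). Fasted WT mice stood above every other animal, and fasted LKO mice reached the level of the brightest fed WT mice. The rise in WT was 16.5-fold (log2 4.05 ± 0.26, limma adjusted p = 5.71e-10), with 3 of 5 fed WT mice well above background. Fed LKO arrays were all without signal well above background, so the LKO rise is a bound of at least 1.94-fold. The fitted LKO rise was 1.32 (limma adjusted p = 0.000128). The difference of the fasting changes was -2.73 ± 0.35 (adjusted p = 3.98e-05), a fitted value that takes in the fed LKO signals below background. With normexp the WT rise was 2.31 and the difference -1.99, and the deposited table gave rise and difference as 2.84 and -2.24. In both, the bright probe of chr19:5771425-5848475_F described below rose more in WT, by 3.63 and 3.57. On the 3 slides taken alone the WT rise was 4.04, 3.96 and 4.4. The slides are not separate repeats: fasted WT replicate 1 was on slides 1 and 2, and fed WT replicate 3 on slides 2 and 3.

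No other kept probe named for that neighbourhood had a called difference between genotypes in its fasting change. The probe of chr6:31007184-31007725_R, on the same strand, rose by 1.57 ± 0.27 in WT and by 2.31 ± 0.25 in LKO, and the difference was not called (0.74 ± 0.37, limma adjusted p = 0.196). A reverse interval on the other side, chr6:31078802-31079644_R, changed by 0.34 ± 0.14 in WT (adjusted p = 0.0695) and rose by 0.89 ± 0.13 in LKO. The nearest gene probe, for 5330406M23Rik, lay 20980 bases from the steep probe on the same strand and rose by 0.56 in WT and 1.1 in LKO.

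A pair of other members rose with fasting in WT and gave no call in LKO, with a called difference between genotypes. The probe of the 117054-base interval chr1:64232564-64349617_R holds an ATTAAA. It gave -4.75, -4.37, -4.76, -4.9 and -4.62 in fed WT and -0.7, -1.0, -1.11, -1.5 and -1.33 in fasted WT mice. Fed LKO mice spanned -5.41 to -3.71 (median -4.07) and fasted LKO mice -4.64 to -3.75 (median -4.13). Only the fasted WT group stood apart. No fed WT array was well above background, so the rise there was at least 8.38-fold. The fitted WT rise was 3.55 (limma adjusted p = 2.3e-09), whereas the LKO change was 0.13 ± 0.23 (adjusted p = 0.691). Their difference was -3.42 ± 0.34 (adjusted p = 2.26e-06), a fitted value that takes in the fed WT signals below background. It was -1.49 with normexp and -2.05 in the deposited table, with WT rises of 1.42 and 2.08.

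The 274-base forward interval chr3:121615836-121616109_F showed a like pattern. Its fed WT values were -5.02, -5.06, -4.27, -4.24 and -4.0, and its fasted WT values were -1.66, -1.97, -2.22, -1.87 and -2.18. The LKO mice ran from -5.05 to -3.23 when fed (median -4.04) and from -4.31 to -3.33 when fasted (median -4.01). Fasted WT mice were again above all others. The WT rise, with 2 of 5 fed WT mice well above background, was 5.83-fold (log2 2.54 ± 0.27, limma adjusted p = 4.28e-07), the LKO change 0.21 ± 0.25, and the difference -2.33 ± 0.37 (adjusted p = 0.000291). With normexp the WT rise was 0.97 and the difference -0.98, and the deposited table gave values of 1.42 and -1.34. Its nearest gene probe, for Arhgap29, was 79223 bases away and was called in neither genotype.

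On chromosome 2, the fitted changes of chr2:145501249-145508811_F were in opposite directions, and small with normexp (0.25 in WT and -0.25 in LKO). The deposited table held no value for this probe. It rose by 1.05 ± 0.35 in WT (limma adjusted p = 0.0205, lost without fasted WT replicate 2). In LKO it fell by at least 1.05-fold, with no fasted LKO array well above background. The fitted LKO change was -0.95 (limma adjusted p = 0.0194), which takes in those signals below background. The probe for BC039771, a long noncoding RNA 33978 bases away on the same strand, had changes of 0.87 and -0.77, both called. In fasted mice the interval was at least 2.66-fold lower in LKO, with a fitted log2 difference of -2.29 (limma adjusted p = 1.93e-05). BC039771 was lower in the same comparison, with a log2 difference of -2.37.

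**Figure D3:**
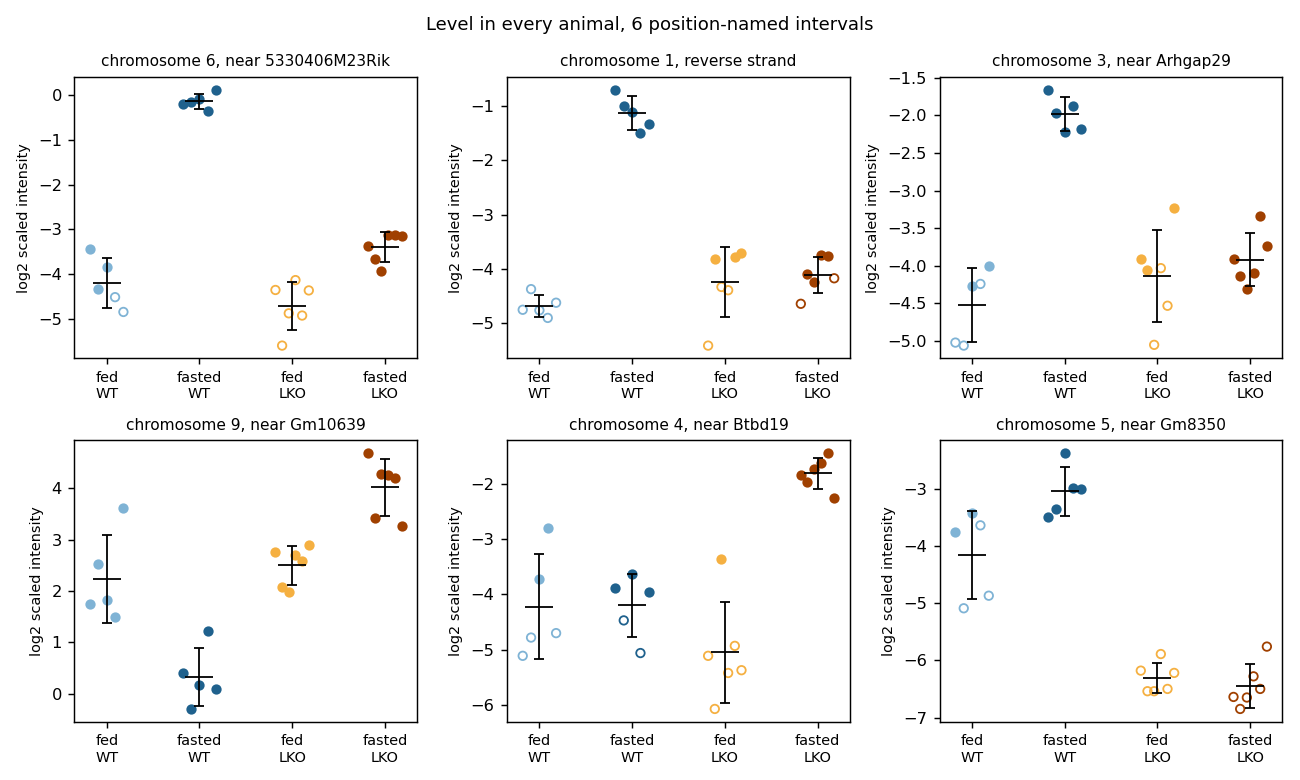
Log2 scaled intensity (y axis) of 6 position-named probes in every animal of the 4 groups (x axis); filled points were well above background, open points were not, and bars give mean ± SD. In the first 3 panels fasted WT mice stand alone at the top; in the chromosome 9 panel fasted WT is lowest and fasted LKO highest; in the chromosome 4 panel only fasted LKO stands apart; in the chromosome 5 panel both LKO groups are low with no filled point.

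The reverse pattern, higher in fasted LKO mice, was led by a probe in the glutathione transferase alpha cluster on chromosome 9, whose enzymes conjugate glutathione to lipid peroxides and xenobiotics. The probe of chr9:78107225-78118850_F gave 1.74, 2.53, 1.82, 1.5 and 3.61 in fed WT mice and 0.4, -0.3, 0.16, 1.22 and 0.09 in fasted WT mice. Fed LKO mice ran from 1.98 to 2.9 (median 2.64) and fasted LKO mice from 3.26 to 4.68 (median 4.23). Fasting thus separated the groups downwards in WT and upwards in LKO. The fall in WT was 3.81-fold (limma adjusted p = 0.000246), the rise in LKO 2.86-fold (adjusted p = 0.000804), and the fasted LKO level was 13.0-fold above fasted WT (adjusted p = 7.9e-08).

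The probe that abuts it on the chromosome, from the overlapping interval chr9:78104935-78116974_F, shared no more than 6 bases in a row with it and moved the same way with smaller changes. It fell by 0.67 ± 0.16 in WT, rose by 0.43 ± 0.15 in LKO (lost without fasted LKO replicate 1 or fed LKO replicate 3) and was 2.32-fold higher in fasted LKO than fasted WT mice. Gm10639, another predicted member of the cluster, had -0.69 in WT and 0.85 in LKO, both called. Over the 22 animals the chromosome 9 probe was most like that of ENSMUST00000095071 (Pearson r = 0.99), with which it shares the 23 bases printed above, so reads of the pair may not be separate.

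A reverse-strand pair on chromosome 4 rose with fasting in LKO and not in WT. The probe of chr4:116790373-116797823_R gave -5.11, -4.78, -3.73, -2.8 and -4.7 in fed WT and -3.88, -4.47, -3.63, -5.06 and -3.95 in fasted WT mice. Its fed LKO values ran from -6.07 to -3.36 (median -5.24) and its fasted LKO values from -2.25 to -1.45 (median -1.79). Fasted LKO mice lay above all others. The LKO rise was 9.38-fold (log2 3.23 ± 0.4, limma adjusted p = 1.47e-06), where 1 of 6 fed LKO mice had a signal well above background, and the difference from WT was 3.2 ± 0.59 (adjusted p = 0.00103). The size moved with the background correction: the LKO rise was 1.03 with normexp and 1.58 in the deposited table, and the difference 1.15 and 1.65.

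A second reverse probe of that locus, from chr4:116791819-116798263_R and 4110 bases away, rose by 1.86 ± 0.2 in LKO and changed by 0.06 ± 0.22 in WT, with a called difference of 1.79 ± 0.3 (limma adjusted p = 0.00043). Beside them on the same strand, Btbd19 rose by 1.14 in LKO and Plk3, a polo-like kinase of the stress response, by 1.98; neither was called in WT. The forward probe of the same coordinates gave 0.15 and -0.11 with fasting, and neither was called.

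Both probes of the chromosome 5 pair that shares 48 bases were also higher in fasted LKO than in fasted WT mice, and these are not separate measurements. With fasting, the first changed by -0.94 in WT, which was not called, and rose by 0.88 in LKO (limma adjusted p = 0.0495, lost under 17 of 29 settings). The second fell by at least 1.42-fold in WT, with a fitted change of -1.69 (limma adjusted p = 0.00502). In LKO it changed by 0.91, which was not called. Both probes hold a repeat of their own: a run of 29 bases recurs in the first and a run of 23 bases in the second, and in 10 of the 2248 kept probes some run of 20 or more bases recurred. No fasted WT array was well above background for either. Fasted LKO was at least 1.45-fold and at least 1.59-fold higher than fasted WT. The fitted differences were 1.75 and 1.85 (limma adjusted p = 0.000999 and 0.00206). The overlapping gene probe for 5031425E22Rik, a long noncoding RNA, shares 42 bases with the second and differed by 1.88 in the same comparison. Of the reverse probes of the same locus without that repeat, those of chr5:22926562-22927468_R and chr5:22928221-22939127_R were higher by 0.71 and 0.46, and a forward one, from chr5:22801058-22939737_F, differed by 0.13 and was not called.

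Genotype differences present in fed and fasted mice alike were rarer. One was that of the reverse interval chr5:106982442-107045717_R, which was well above background in 2 of 5 fed WT mice, all 5 fasted WT mice and no LKO mouse. Fed WT mice gave -3.75, -5.09, -3.42, -3.64 and -4.87 and fasted WT mice -3.49, -3.36, -2.38, -2.98 and -3.01, while LKO mice ran from -6.54 to -5.89 fed (median -6.36) and from -6.85 to -5.76 fasted (median -6.57). Every LKO animal was below every WT animal. LKO was at least 1.14-fold lower when fed and at least 2.81-fold lower when fasted, for a probe that passed the detection limit through WT mice alone. Gm8350, 207 bases away on the same strand, was lower by 1.22 and 1.31, whereas the forward probe of the same interval differed by 0.0 and -0.21 and was not called. Over the 22 animals the gene probes most like it were those of Vnn1, a pantetheinase gene known as a PPARα target, and Mtnr1a, a melatonin receptor gene (r = 0.966 for both). Etfb came next (r = 0.965). Because the probe passed through WT mice alone, likeness to genes lower in LKO was built in by the filter. These correlations are descriptions.

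A pair of overlapping forward intervals on chromosome 1 lost signal in LKO in either state. The probe of chr1:161992257-161992963_F gave -0.69, -1.07, -0.62, -0.47 and -0.51 in fed WT and 0.27, 0.28, 0.31, 0.43 and 0.19 in fasted WT mice. LKO mice ran from -2.05 to -1.33 fed (median -1.65) and from -1.55 to -0.83 fasted (median -1.13). The genotypes did not overlap in either state. In fed mice the LKO level was lower by 1.99-fold (limma adjusted p = 6.41e-05) and in fasted mice by 2.75-fold (adjusted p = 3.79e-08), and the probe rose with fasting by 0.97 ± 0.14 in WT and by 0.5 ± 0.12 in LKO. The probe of chr1:161969026-162001640_F was lower by 0.77 ± 0.14 and 1.29 ± 0.14, and that of 4930523C07Rik, 15532 bases from the first on the same strand, by 1.11 and 1.75.

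The 3 gene probes most like the first were those of Ech1, an enoyl-CoA hydratase family member (r = 0.967), Ppara itself (r = 0.965) and Zfand6 (r = 0.964). For the second they were those of Cpt2, the inner mitochondrial carnitine palmitoyltransferase (r = 0.965), Dhrs4 (r = 0.955) and Aldh9a1 (r = 0.952). These are correlations over 22 animals in 4 groups, so they follow the group means, and they are descriptions.

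A further 3 members differed by genotype and gave no call with fasting in either genotype. The probe of chr1:85323303-85337483_F was lower in LKO by 1.33 ± 0.25 fed and 1.61 ± 0.25 fasted, and that of chr9:43542196-43544496_R by 0.71 ± 0.12 and 0.68 ± 0.12. The probe of chr17:32035750-32056000_R was higher by 1.06 ± 0.22 and 1.4 ± 0.22. No WT animal overlapped an LKO animal of the same feeding state for these 3. The 3 gene probes most like each of the first pair included ones on other chromosomes: Sspo (r = 0.988) and Flii (r = 0.97) for the first, and Flii (r = 0.94) and Sspo (r = 0.922) for the second. The interval chr15:61984389-62102500_F overlaps Pvt1, a long noncoding RNA beside Myc, and its probe shares 28 bases with the Pvt1 probe. It was higher in LKO by 1.14 ± 0.21 fed and 0.69 ± 0.21 fasted, with that Pvt1 probe at 0.94 and 0.65, all called.

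Several probes read the same interval name in 118 cases. In these intervals, changed or not, the median range between probes was 0.2 for fasting in WT and 0.2 for fasting in LKO. For genotype it was 0.12 in fed and 0.21 in fasted mice. At least 1 probe was called with fasting in 53 intervals in WT and 68 in LKO, and all probes in 19 and 31. For genotype, all were called in 1 of 6 such intervals in fed mice and 19 of 56 in fasted mice. For the difference of the fasting changes all were called in 6 of 26. Probes of 1 interval were called in opposite directions for 1 interval in LKO fasting and 1 in the fasted genotype comparison, and for none in the other 3 comparisons. On chromosome 17, the 2 probes of chr17:15100982-15115630_R rose by 2.67 ± 0.4 and 2.18 ± 0.27 with fasting in WT. In LKO they rose by 1.4 ± 0.37 and 1.01 ± 0.25, and both LKO calls were lost with normexp. The WT rises were 0.7 and 0.73 with normexp and 1.15 and 1.16 in the deposited table. Of 5 probes in intervals beside the ribosomal RNA gene Rn18s, none changed by more than 0.39 in any comparison.

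The widest disagreement lay beside Neat1 on chromosome 19, where the range reached 3.75. The probe printed above for chr19:5771425-5848475_F gave 3.32, 3.26, 3.88, 4.09 and 3.87 in fed WT and 7.24, 7.55, 7.32, 7.18 and 7.35 in fasted WT mice. It ran from 4.74 to 5.46 in fed LKO (median 5.19) and from 8.32 to 8.85 in fasted LKO mice (median 8.66). None of the 4 groups overlapped another. Its rise was 12.5-fold in WT (limma adjusted p = 2.78e-12) and 11.2-fold in LKO (adjusted p = 1.12e-12), and it was 2.74-fold higher in fed LKO and 2.46-fold higher in fasted LKO than in WT mice.

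The other probe of that interval, 27 bases away, gave 2.19, 2.02, 2.57, 2.63 and 2.03 in fed WT and 2.09, 1.98, 2.2, 2.46 and 2.17 in fasted WT mice, and changed by -0.11 ± 0.18. It rose by 0.69 ± 0.16 in LKO. The nearest other forward probe, from chr19:5841103-5845579_F and 179 bases away, changed by -0.3 ± 0.16 in WT and rose by 0.39 ± 0.15 in LKO, a call lost under 10 of 30 settings. The steep probe was most like Apoa4 (r = 0.995), the gene of a lipoprotein that fasting is known to raise in liver, whereas the second probe was most like Neat1 (r = 0.944). The longest run the steep probe shares with the Apoa4 probe is 6 bases, and matches elsewhere in the Apoa4 transcript were not analysed here. The nearest Neat1 probe, on the reverse strand, changed by -0.01 in WT and rose by 0.51 in LKO.

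**Figure D4:**
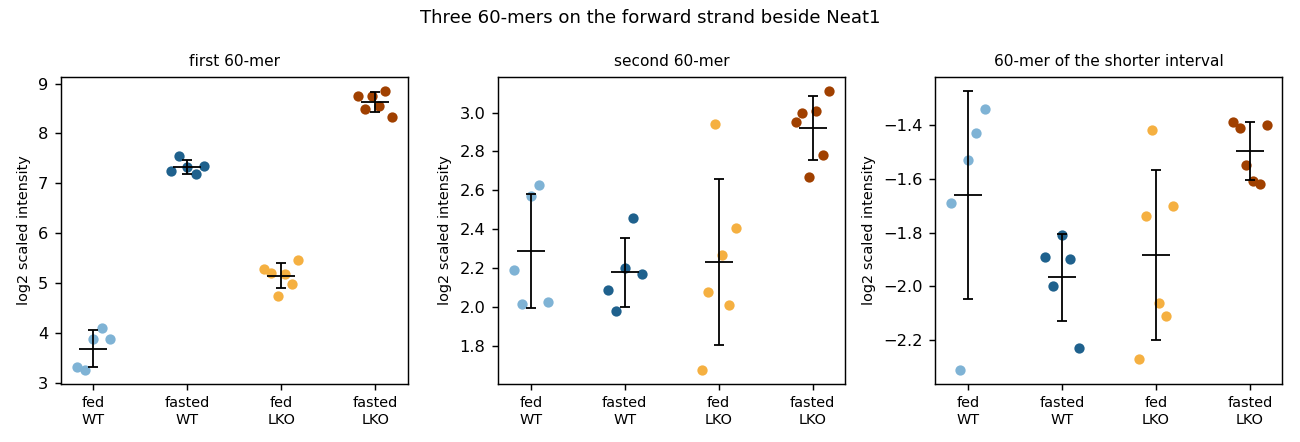
Log2 scaled intensity (y axis, a separate range in each panel) of 3 forward-strand probes beside Neat1 in every animal of the 4 groups (x axis), with mean ± SD; all points were well above background. The first probe climbs from between 3.26 and 4.09 in fed WT to between 8.32 and 8.85 in fasted LKO mice, while the other 2, 27 and 179 bases away, run from 1.68 to 3.11 and from -2.31 to -1.34.

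A like split appeared beside Ifi204, an interferon-inducible gene on chromosome 1. One probe of chr1:175660642-175671878_R gave 0.34, 0.39, 0.52, 0.59 and 0.35 in fed WT and 2.04, 2.28, 2.17, 1.95 and 2.16 in fasted WT mice, and from 1.03 to 1.22 in fed LKO (median 1.11) and 3.61 to 4.12 in fasted LKO mice (median 3.85). No group overlapped another. It rose by 1.68 ± 0.09 in WT and 2.75 ± 0.08 in LKO, with a called difference of 1.07 ± 0.12 (limma adjusted p = 1.04e-05). The other kept probe of that interval changed by -0.02 ± 0.19 in WT and rose by 0.47 ± 0.17 in LKO (lost under 9 of 30 settings), and the 3 probes of the overlapping reverse interval chr1:175654606-175672031_R rose by 0.45 to 0.59 in WT and 0.49 to 0.55 in LKO. Those 3 were most like Ifi204 (r = 0.914 to 0.92), and the steep probe was most like Gm33698 (r = 0.988).

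The brightest kept probe read the reverse interval chr1:193875525-193978800_R and also followed a gene elsewhere. It gave 9.89, 10.12, 9.98, 10.05 and 10.11 in fed WT and 9.34, 9.52, 9.7, 9.43 and 9.41 in fasted WT mice, and from 9.57 to 9.91 in fed LKO and 9.53 to 9.79 in fasted LKO mice. Fasting lowered it by 0.55 ± 0.08 in WT without overlap, and the LKO change of -0.13 ± 0.08 was not called. Its most like gene probe was that of Gstp1, a glutathione transferase on another chromosome (r = 0.977). Among the 7 next brightest, the most like genes included Rps16, a ribosomal protein gene (r = 0.883), and Oaz1, ornithine decarboxylase antizyme (r = 0.93). The others were Cox17, a copper chaperone of cytochrome oxidase (r = 0.936), Zfp628 (r = 0.909), Crybg3 (r = 0.906 and 0.837) and Nudt14 (r = 0.796). The probes most like Cox17, Zfp628 and Crybg3 had GC contents of 78.3% to 88.3%, against a median of 45.0% over the kept position-named probes.

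In 295 coordinate pairs both strands of the same interval were kept. The correlation of their changes over pairs was 0.217 for fasting in WT, 0.205 for fasting in LKO, 0.132 for genotype in fed mice and 0.057 in fasted mice. At least 1 strand was called with fasting in WT in 115 pairs and both in 9, of which 8 moved the same way. In LKO these counts were 144, 22 and 18. For genotype they were 8, 2 and 2 in fed mice and 105, 12 and 6 in fasted mice, and for the difference of the fasting changes 50, 2 and 2.

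Position-named probes moved most like the nearest gene when that gene lay close by on the same strand. For 440 probes with a kept gene probe within 10 kb on their own strand, the correlation of changes over pairs was 0.401 for fasting in WT, 0.336 for fasting in LKO, 0.323 and 0.522 for genotype in fed and fasted mice, and 0.413 for the difference of the fasting changes. With the nearest gene on the opposite strand (331 pairs) the values were 0.125, 0.086, -0.048, 0.102 and 0.124. Gene probes and the nearest probe of another gene within 10 kb, taken the same way, gave 0.406, 0.362, 0.346, 0.376 and 0.323 on the same strand (3520 pairs) and 0.175, 0.089, 0.098, 0.132 and 0.091 on opposite strands (7442 pairs). The higher values on the same strand were thus found for pairs of genes too. Where both a probe and its same-strand neighbour were called in fasted mice by genotype, 48 of 52 pairs moved the same way. Among same-strand pairs of genes, 441 of 554 did so in that comparison, which was the one with the highest correlation for intervals. These are descriptions over pairs that share animals and arrays, and a probe and gene on 1 strand can read the same transcript.

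**Figure D5:**
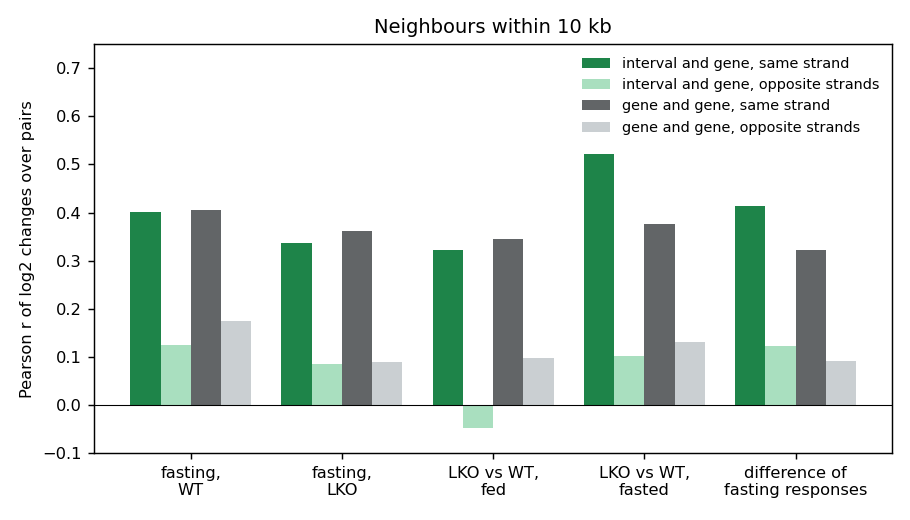
Pearson correlation (y axis) of log2 changes between a position-named probe and the nearest kept gene probe within 10 kb, on the same strand (dark green, 440 pairs) or the opposite strand (pale green, 331 pairs), and between probes of neighbouring genes on the same strand (dark grey, 3520 pairs) or opposite strands (pale grey, 7442 pairs), in the 5 comparisons. Same-strand bars are above opposite-strand bars in every comparison, for intervals (0.323 to 0.522) and for pairs of genes (0.323 to 0.406).

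Long noncoding RNAs that carry a gene symbol were read for comparison. Of 39 on the list, 26 were kept. Fasting raised 8 and lowered 2 in WT, where all probes gave 20.5% and 18.2%, and raised 14 and lowered 1 in LKO, against 21.0% and 22.7%. In fasted mice 11 were higher and 2 lower in LKO than in WT, against 15.0% and 18.8% of all probes, with a median difference of 0.51, against -0.04 over the kept position-named probes. Among them were small nucleolar RNA host genes: Snhg1, at -0.55 ± 0.1 (SD, n = 5) in fasted WT and 0.72 ± 0.11 (SD, n = 6) in fasted LKO, rose by 1.3 with fasting in LKO and gave 0.15 in WT, where it was not called. Snhg12 rose by 0.4 and 1.31, and Gas5, a host gene linked to growth arrest, by 0.42 and 0.79. Of the other kept Snhg genes, Snhg5 had fasting changes of -0.06 in WT and 0.66 in LKO, Snhg6 of 0.27 and 1.02, and Snhg18 of 0.03 and 1.03; each was called except those of Snhg5 and Snhg18 in WT. Snhg3 rose by 0.8 and 0.93 and was lower in LKO, by a log2 difference of -0.6 fed and -0.47 fasted. Snhg8 fell by 0.22 in WT and changed by 0.03 in LKO, which was not called. Snhg11 gave no call with fasting and was higher in LKO by 1.49 fed and 2.02 fasted.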

How the data were processed

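Fluorescence intensity values were deposited by the authors as scanner output, 1 file per array, made with Agilent Feature Extraction 10.10.1.1 per the file headers, with background subtraction and detrending and no scaling between arrays. Labelled cRNA (Cy3) was hybridised to 1-colour arrays. Positions and interval names are in build mm9, per the file headers. A second deposited file holds log2 values of 31356 probes, which served here only as an alternative; limma is named for it in the submitters' processing notes.

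From the processed signals, control spots and outlier spots (94 to 161 per array) were left out, repeat spots were combined as means, and log2 values were set against each array's 75th percentile over all 56605 probes. Of these, 50.0% to 58.8% per array were well above background. Probes passing on at least 5 arrays were fitted in limma 3.58.1 (R 4.3.3) with 1 mean per group over 22 animals. Slides (3) each held all 4 groups. A value missing after outlier removal, for 2 kept members, was left missing. The labels do not say whether animals share litters. The p-values weigh a difference against the spread between these animals, and the number of animals limits precision.

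Members named are the 6 largest changes in each direction per comparison among called members (for pairs of groups, without overlap), the 8 brightest, and other probes of the same loci, which were chosen after their values were seen, as was the choice of which of these to describe. Members, rule and lists were chosen with earlier results of these data known. Alternatives were quantile scaling, normexp with offset 50, no filter, a stricter filter, the deposited table, slide or replicate as a block, the second array of an animal, and leaving out each animal. The fit was tested on simulated data.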

Additional observations from a re-analysis of the deposited data

Results flagged for a closer look

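The fasting change was called different between genotypes, by the interaction term of limma, for 22 of the 70 probes examined singly. These probes were chosen in part by the largest called values of this same term, so the count is no rate. Over all probes fitted the term was called higher for 5.91% and lower for 8.74%, and for 62 and 115 of the 2248 kept position-named probes. The change in LKO minus that in WT was negative for chr1:64232564-64349617_R (-3.42), chr6:31037606-31037912_R (-2.73), chr8:42462791-42466106_R (-2.4), chr3:121615836-121616109_F (-2.33), chr2:119697845-119719245_F (-2.02), chr2:145501249-145508811_F (-2.0), chr5:75186625-75186910_F (-1.79), chr1:59449275-59474025_F (-1.27), chr5:106982442-107045717_R (-1.24) and 1 probe of chr17:15100982-15115630_R (-1.17). It was positive for chr9:78107225-78118850_F (3.45), chr4:116790373-116797823_R (3.2), chr5:22890322-22939119_R (2.6), chr5:22887983-22939658_R (1.82), chr4:116791819-116798263_R (1.79), chr3:131128972-131163308_R (1.69), chr9:78104935-78116974_F (1.1), 1 probe of chr1:175660642-175671878_R (1.07) and chr2:143988645-143993945_R (1.01). Smaller positive differences were those of 1 probe of chr19:5771425-5848475_F (0.8), chr19:5841103-5845579_F (0.69) and chr1:193875525-193978800_R (0.42). The call was lost under 16 to 20 of 29 or 30 settings for chr5:75186625-75186910_F, the chr17:15100982-15115630_R probe and chr19:5841103-5845579_F. The 22 also count chr1:59449275-59474025_F, detected in fed mice alone, and chr5:106982442-107045717_R, detected in WT mice alone. Their fitted differences of -1.27 and -1.24 rest on signals below background and are given without a test.

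The values of 70 probes in each of the 4 groups gave 280 sets tested for a value far from the rest, and 8 held one. Chance gives about 1 in 20 for independent sets. These sets share animals, and some probes share a locus, so they are not independent. Fed LKO replicate 3 gave -2.04 for chr15:61984389-62102500_F (median of the others -0.94) and -5.84 for chr5:22887983-22939658_R (-4.71). Fasted WT replicate 1 gave 1.29 for 1 probe of chr1:175654606-175672031_R (1.81) and -3.63 for 1 probe of chr1:175660642-175671878_R (-3.24). Single values apart were -5.38 in fasted WT replicate 2 for chr1:59449275-59474025_F (-6.78), 5.4 in fed WT replicate 4 for chr17:39982023-39983277_F (4.93), -0.97 in fasted LKO replicate 6 for chr4:116790373-116797823_F (-1.15) and -5.46 in fasted LKO replicate 5 for chr8:42462791-42466106_R (-4.23).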

How the results depend on the processing

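No named value that was called changed direction under any alternative. Without a filter on dim probes the calls of genotype in fed mice numbered 19 against 33 and those of the difference of the fasting responses 102 against 177; the other counts stayed within 1.5 times under every alternative that kept all animals. The split of the difference moved from 62 higher and 115 lower to 77 and 85 with quantile scaling and 77 and 88 in the deposited table. That of genotype in fed mice was 15 and 18, against 15 and 21 with quantile scaling and 10 and 15 with normexp. It was 8 and 17 in the deposited table, which held 1995 of the 2248 kept probes. Leaving out 1 animal in turn gave 470 to 589 calls for fasting in WT, 563 to 642 for fasting in LKO, 22 to 42 for genotype in fed mice, 355 to 475 in fasted mice and 133 to 230 for the difference. With the replicate block the counts were 534, 609, 24, 432 and 145; replicate numbers did not pair animals (mean correlations of same-numbered animals -0.028 to 0.035, with 6 of 22 best matches sharing a number). Requiring detection on at least 1 or at least 12 arrays kept 3269 or 1968 probes. Within 10 kb in place of 100 kb, correlations with the nearest gene on either strand moved from 0.155, 0.147, 0.106, 0.24 and 0.177 to 0.286, 0.218, 0.173, 0.363 and 0.305. Of 143 named values called, 16 lost the call with normexp, 14 without a filter and 3 with quantile scaling; none of the 117 in the deposited table did. The causes were not tested. Signals near background limit the dimmer members.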
